A study of Mus musculus with 24 samples.

Results

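The 37 genes described here encode the enzymes of glycolysis with their main regulators, the carriers that bring glucose in and lactate out, and the hypoxia-inducible factors with the enzymes that control them and 6 of their known targets. They were taken as a list of gene symbols, with no threshold on a measured value, by a choice made with earlier results of these data known. All 37 were found among the 21878 genes of the count table, and all 37 passed the filter on low counts that left 13501 genes for testing.

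RNA was sequenced from mouse hearts taken 3 weeks after myocardial infarction (MI). All mice had been ovariectomised and all had received an adeno-associated virus of serotype AAV9, either one that overexpresses the microRNA miR-21 (AAV9-OE miR-21) or an empty one (AAV9-Empty). Swimming training, where it was given, came before the infarction. Analysed here were 5 libraries of miR-21 vector with swimming, 6 of miR-21 vector without swimming (miR-21 control), 6 of empty vector with swimming and 6 of empty vector without swimming (empty control). The labels do not state that each library came from its own animal, so p-values measure the spread between these libraries. The promoter that drives the vector is not given in the labels, and every group carries ovariectomy, virus and infarction, so no group shows an untreated heart.

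Glycolysis splits glucose into pyruvate in the cytosol, and lactate dehydrogenase converts pyruvate and lactate into each other. Heart muscle draws most of its energy from fatty acids in mitochondria and leans more on glycolysis when oxygen is short. When oxygen is plentiful, prolyl hydroxylases mark the alpha subunits of the hypoxia-inducible factors (HIF) for destruction; when it is scarce, the subunits accumulate, pair with the Arnt protein and bind a short core motif near genes that include many of those described here. Several steps of glycolysis have a form typical of muscle and a form found in most other cells, among them Eno3 and Eno1, Pfkm and Pfkl or Pfkp, and Pgam2 and Pgam1.

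The mature sequence of the overexpressed microRNA is shown with its seed, bases 2 to 8, in capitals, because pairing of this stretch is how a microRNA finds its targets. The sequence is the RefSeq entry of mouse miR-21a-5p, at chr11:86584120-86584141 on the minus strand of GRCm38.p6.
miR-21a-5p: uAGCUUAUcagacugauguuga
The DNA letters that pair with the seed, ATAAGCT, were looked for in the longest annotated 3' untranslated region of each gene (GENCODE, GRCm38). They were present in 2 of 37 members (5.41%) and in 1018 of 12987 tested genes with such a region (7.84%). Both matches are shown in 30 letters, with the match in capitals.
Slc16a3: tgaagtatagcATAAGCTgttcactgtgtg
Pfkm: ttttcctaaaaATAAGCTttatttatttct
A match is a description of the letters and no evidence of binding.

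Promoters of the 3 members of the hypoxia arm that fell with swimming are shown because the core motif of the HIF complex is short enough to be read in them. Capitals mark ACGTG or GCGTG on either strand, and matches that overlap on opposite strands are counted apart. The sequences are from RefSeq, GRCm38.p6, and run from 250 bases before the gene's start to 50 after it.
Bnip3 promoter, chr7:138909457-138909756, minus strand: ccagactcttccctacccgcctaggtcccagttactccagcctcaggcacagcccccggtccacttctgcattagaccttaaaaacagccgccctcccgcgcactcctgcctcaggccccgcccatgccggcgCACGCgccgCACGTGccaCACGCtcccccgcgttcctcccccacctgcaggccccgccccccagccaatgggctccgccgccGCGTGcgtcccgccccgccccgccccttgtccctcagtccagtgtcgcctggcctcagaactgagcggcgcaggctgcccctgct
Egln3 promoter, chr12:54203825-54204124, minus strand: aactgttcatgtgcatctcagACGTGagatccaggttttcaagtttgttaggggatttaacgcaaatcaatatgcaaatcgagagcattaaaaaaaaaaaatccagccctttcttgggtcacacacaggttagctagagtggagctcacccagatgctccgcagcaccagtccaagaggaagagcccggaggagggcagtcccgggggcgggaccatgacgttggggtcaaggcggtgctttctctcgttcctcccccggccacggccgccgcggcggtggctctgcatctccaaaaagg
Car9 promoter, chr4:43506776-43507075, plus strand: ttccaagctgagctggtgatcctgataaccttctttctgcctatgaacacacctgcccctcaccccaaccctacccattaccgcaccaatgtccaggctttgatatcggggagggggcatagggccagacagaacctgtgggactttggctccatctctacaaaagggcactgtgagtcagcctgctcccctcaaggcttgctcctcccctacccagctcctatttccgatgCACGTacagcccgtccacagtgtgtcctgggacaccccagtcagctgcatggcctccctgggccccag
The Bnip3 promoter held 5 matches and those of Egln3 and Car9 held 1 each. Of the 37 members, 35 had a promoter entry, and 32 of these (91.4%) had at least 1 match, against 6847 of 10320 tested genes (66.3%). Per promoter, since a gene can have several, 41 of 52 promoters of members held a match (78.8%), against 7967 of 13226 promoters of tested genes (60.2%). Members that fell and members that did not both carry the motif, and nothing is drawn from its presence.

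Library totals lay between 12744241 and 14657630 counts, and none of the 253 pairs of libraries was identical. One library of the miR-21 swimmers, replicate 2, stood apart. Its 8 cardiomyocyte markers summed to 54471 CPM (counts scaled to library size, with TMM normalisation between libraries), against 92512 to 113563 in the other 4 of its group. Its 6 neutrophil markers summed to 1005 CPM, its 8 macrophage markers to 2263 CPM and its 8 activated fibroblast markers to 4581 CPM, while the same sums in the other 4 reached at most 55.1, 692 and 1475 CPM. In heart tissue as a whole, fewer cells of a type and less RNA per cell cannot be told apart. The numbers in the library titles fall into 2 separate runs, and the labels do not say what they stand for. All libraries of both control groups lie in the lower run and all 6 empty swimmers in the higher, while the miR-21 swimmers have replicates 1 and 2 in the lower run and 3 to 5 in the higher.

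Per length of transcript, as the authors' FPKM, the members spanned a wide range of levels over the 23 libraries. Aldoa, the aldolase of muscle and most tissues, stood highest at 1258 ± 84.1 FPKM (SD, n = 23 here and below), close to the heart form of lactate dehydrogenase, Ldhb, at 1246 ± 176 FPKM. Pgam2, the muscle phosphoglycerate mutase, followed at 617 ± 72.4 FPKM, then Tpi1, triosephosphate isomerase, at 567 ± 35.4 FPKM. Pyruvate kinase Pkm had 510 ± 19.4 FPKM, the muscle enolase Eno3 480 ± 79.8 FPKM, Ldha 438 ± 42.4 FPKM and the muscle phosphofructokinase Pfkm 335 ± 40.0 FPKM. Aldoa and Ldhb did not differ beyond their spread, nor did Pgam2 and Tpi1, Pkm and Eno3, or Eno3 and Ldha. Gapdh, which acts between Tpi1 and Pgk1 in the pathway, was listed at only 110 ± 17.7 FPKM, against 242 ± 16.8 FPKM for Pgk1. The reference annotation holds 3 named copies of Gapdh, 3 of Pgk1, 3 of Ldha, 2 of Aldoa, 2 of Pgam1 and 1 of Ldhb, and how reads shared with such copies were counted is not given in the sources used here, so the levels of these 6 genes are uncertain. Only copies named by the gene's symbol followed by ps or rs were looked for. Copies under other names, of these or other members, were not counted.

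Among the oxygen-sensing members, the prolyl hydroxylase Egln1 had the highest level, 134 ± 14.9 FPKM, and Egln3, a related hydroxylase that HIF itself induces, had 32.8 ± 8.38 FPKM. Epas1, which encodes HIF-2 alpha, had 92.2 ± 8.75 FPKM, Hif1a 20.5 ± 2.85 FPKM and Hif3a 0.456 ± 0.257 FPKM. Bnip3, a mitochondrial protein that promotes mitophagy and cell death, was the most abundant of the 6 hypoxia targets at 107 ± 19.5 FPKM. The carbonic anhydrase gene Car9, widely used as a marker of tissue hypoxia, was the lowest, at 0.468 ± 0.485 FPKM. Both carriers of lactate were unequal in level: Slc16a1 had 74.1 ± 8.92 FPKM and Slc16a3, the form typical of strongly glycolytic cells, 1.49 ± 1.35 FPKM.

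With the empty vector, hearts of mice that had swum had lower levels of 6 members than hearts of mice that had not: the hypoxia targets Bnip3 and Car9, the hydroxylase Egln3, the non-muscle phosphofructokinases Pfkl and Pfkp, and the widespread enolase Eno1. No member rose. The 6 of 37 stand against 443 of 13501 tested genes that fell in the same comparison (3.28%) and 1007 that changed in either direction (7.46%), by edgeR's quasi-likelihood test at an adjusted p under 0.05. The median log2 fold change was -0.03 over the 37 members and -0.005 over all tested genes, and 24 members lay below 0. Changes were counted in 2 of 6 hypoxia targets, 1 of 5 HIF and hydroxylase genes, 3 of 17 glycolytic enzymes, 0 of 6 regulators and 0 of 3 carriers.

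**Figure D1:**
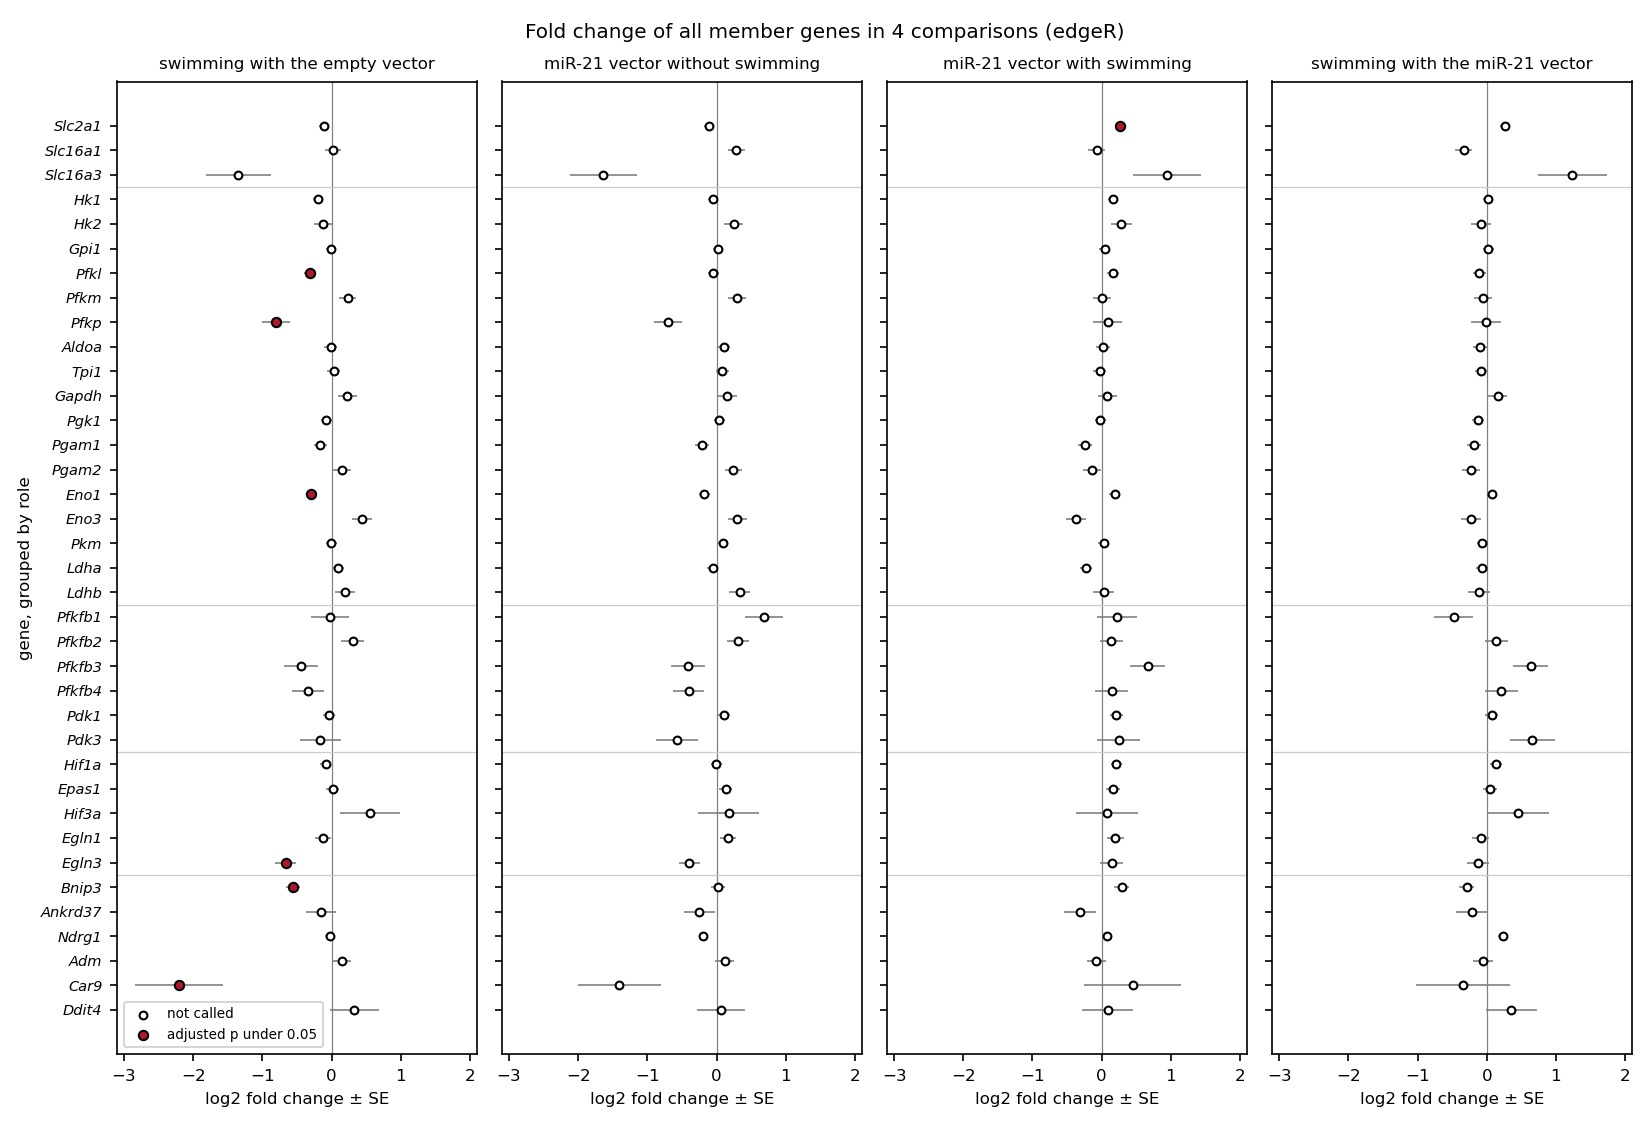
Log2 fold change ± standard error (x axis) of all 37 members (y axis, grouped by role) in 4 comparisons, 1 panel each, from edgeR. Filled points passed an adjusted p under 0.05: 6 members, all below 0, for swimming with the empty vector, and Slc2a1 alone for the miR-21 vector with swimming.

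Bnip3 had 130, 150 and 161 CPM (lowest, median and highest of 6) in empty swimmers, against 170, 226 and 249 CPM in empty controls. The 2 groups did not overlap. Its log2 fold change was -0.56 ± 0.10 (SE; edgeR adjusted p = 0.00254). In hearts with the miR-21 vector, Bnip3 had 198, 147, 205, 172 and 168 CPM in the 5 swimmers, against 191, 211 and 268 CPM in the 6 controls. Here the groups overlapped, and swimming gave a log2 fold change of -0.29 ± 0.11 (edgeR adjusted p = 0.176); the difference between both swimming effects was 0.27 ± 0.15 (adjusted p = 0.301).

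Egln3 also separated the groups with the empty vector, at 59.8, 70.0 and 85.9 CPM in swimmers and 91.9, 111 and 137 CPM in controls. Its log2 fold change was -0.66 ± 0.15 (edgeR adjusted p = 0.0122). With the miR-21 vector it had 85.9, 57.7, 48.9, 122 and 81.1 CPM in swimmers, against 77.4, 85.2 and 103 CPM in controls. The swimmers reached both above and below the controls, and the log2 fold change was -0.12 ± 0.16 (adjusted p = 0.684).

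Car9 was low everywhere. It had 0.148, 0.212 and 1.11 CPM in empty swimmers and 0.819, 1.62 and 3.77 CPM in empty controls, with a log2 fold change of -2.20 ± 0.63 (edgeR adjusted p = 0.0363). Replicates 4 and 5 of the empty controls, at 3.77 and 3.64 CPM, were the highest of all, and the highest swimmer exceeded the lowest control. In miR-21 swimmers it had 0.300, 1.76, 0.0780, 0.810 and 0 CPM, and in miR-21 controls 0.426, 0.746 and 1.35 CPM. The call was lost when control replicate 4 (adjusted p = 0.0853) or 5 (adjusted p = 0.0836) was left out, and likewise without empty swimmer 1, 2, 3 or 6 (adjusted p from 0.0790 to 0.0819).

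Both phosphofructokinase genes that fell catalyse the committed step of glycolysis in tissues other than muscle. Pfkl had 168, 182 and 191 CPM in empty swimmers and 182, 236 and 246 CPM in empty controls (log2 fold change -0.31 ± 0.08, edgeR adjusted p = 0.0262). Pfkp had 88.9, 104 and 146 CPM in empty swimmers and 92.1, 195 and 247 CPM in empty controls (-0.80 ± 0.20, adjusted p = 0.0197). For both genes the groups touched through control replicate 2, which had the lowest level of its group, at 182 CPM for Pfkl and 92.1 CPM for Pfkp. With the miR-21 vector, Pfkl had 196, 166, 179, 238 and 226 CPM in swimmers and 201, 218 and 229 CPM in controls. Pfkp there had 114, 141, 65.8, 157 and 92.5 CPM in swimmers and 87.9, 114 and 132 CPM in controls. In neither gene did the miR-21 swimmers stand apart from the miR-21 controls (adjusted p = 0.505 for Pfkl and 0.981 for Pfkp).

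Eno1, the enolase of most tissues, had 195, 210 and 233 CPM in empty swimmers and 236, 252 and 307 CPM in empty controls, with no overlap. Its log2 fold change was -0.29 ± 0.07 (edgeR adjusted p = 0.0202). In miR-21 swimmers it had 225, 292, 214, 256 and 228 CPM, and in miR-21 controls 225, 228 and 246 CPM. There the swimming effect was 0.08 ± 0.08 (adjusted p = 0.593), and the difference between the effects with either vector was 0.37 ± 0.11 (adjusted p = 0.082). The muscle enolase Eno3, singled out after its values were seen, had 1436, 1648 and 1859 CPM in empty swimmers and 894, 1234 and 1385 CPM in empty controls. These groups did not overlap either, in the opposite direction, but the log2 fold change of 0.44 ± 0.14 did not pass (adjusted p = 0.0533).

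**Figure D2:**
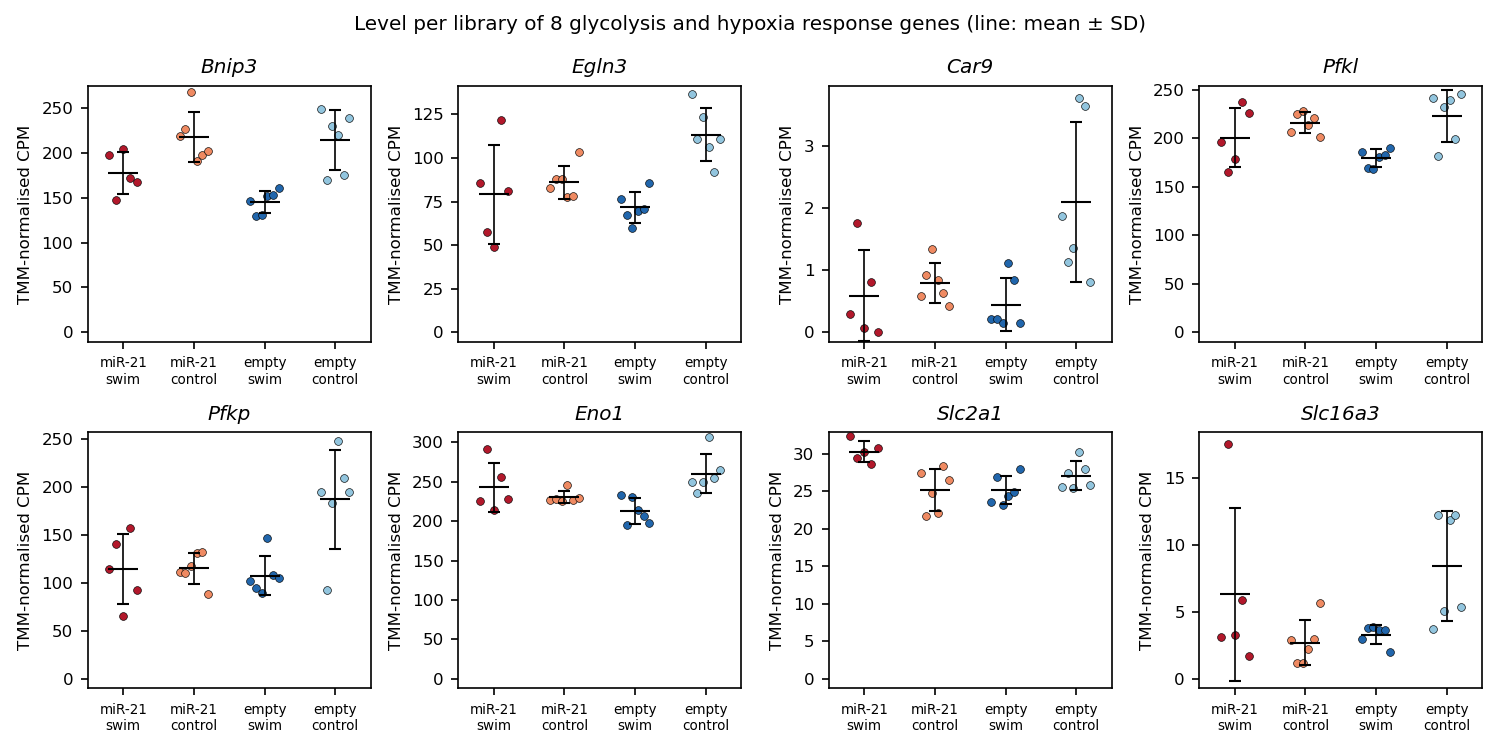
TMM-normalised CPM per library (y axis) of the 7 members that passed the test in a comparison and of Slc16a3, by group (x axis); each dot is a library, lines give the mean ± SD. Bnip3, Egln3 and Eno1 show no overlap between empty swimmers and empty controls, and Slc2a1 lies at 28.7 to 32.3 CPM in miR-21 swimmers, above the 28.0 CPM of the highest empty swimmer.

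Since the muscle and non-muscle forms of a step are close in function, their balance was read as the share of each form in the summed FPKM of its family. Eno1 made up 14.9, 15.7 and 17.9% of the enolase FPKM in empty swimmers, against 20.8, 23.1 and 29.3% in empty controls. Pfkl made up 9.89, 10.6 and 11.4% of the phosphofructokinase FPKM in empty swimmers, against 13.0, 13.7 and 15.4% in empty controls. In both families the non-muscle form took a smaller share in every empty swimmer than in any empty control. The same held for the miR-21 controls, which had not swum. Their shares were 16.8 to 20.3% for Eno1 and 11.4 to 12.6% for Pfkl. Pfkp took 5.05, 5.67 and 8.60% in empty swimmers and 6.37, 10.6 and 15.4% in empty controls, with overlap. That the enolase share separated empty swimmers from empty controls follows from the levels above. There Eno1 was lower and Eno3 higher in every empty swimmer than in any empty control. Pfkl had likewise been called as a fall, so these shares restate known levels and are no further support.

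With the miR-21 vector the same shares did not separate swimmers from controls. Eno1 made up 18.4 to 38.0% of the enolase FPKM in miR-21 swimmers and 16.8 to 20.3% in miR-21 controls, and the highest value was that of replicate 2 of the swimmers. Pfkl lay between 9.52 and 15.1% in miR-21 swimmers and between 11.4 and 12.6% in miR-21 controls. Of the other pairs, Hk1 took 41.4 to 56.9% of the hexokinase FPKM in miR-21 swimmers, 39.6 to 51.4% in miR-21 controls, 45.1 to 50.4% in empty swimmers and 44.5 to 54.2% in empty controls, so that all 4 groups overlapped. Ldha took 18.9 to 37.7% of the lactate dehydrogenase FPKM in miR-21 swimmers, 21.7 to 25.2% in miR-21 controls, 25.7 to 28.7% in empty swimmers and 23.6 to 31.8% in empty controls. Pgam1 took 3.07 to 6.18% of the phosphoglycerate mutase FPKM in miR-21 swimmers, 3.39 to 4.23% in miR-21 controls, 3.29 to 4.76% in empty swimmers and 4.15 to 6.86% in empty controls. For Ldha and Pgam1 too, swimmers and controls overlapped with either vector.

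**Figure D3:**
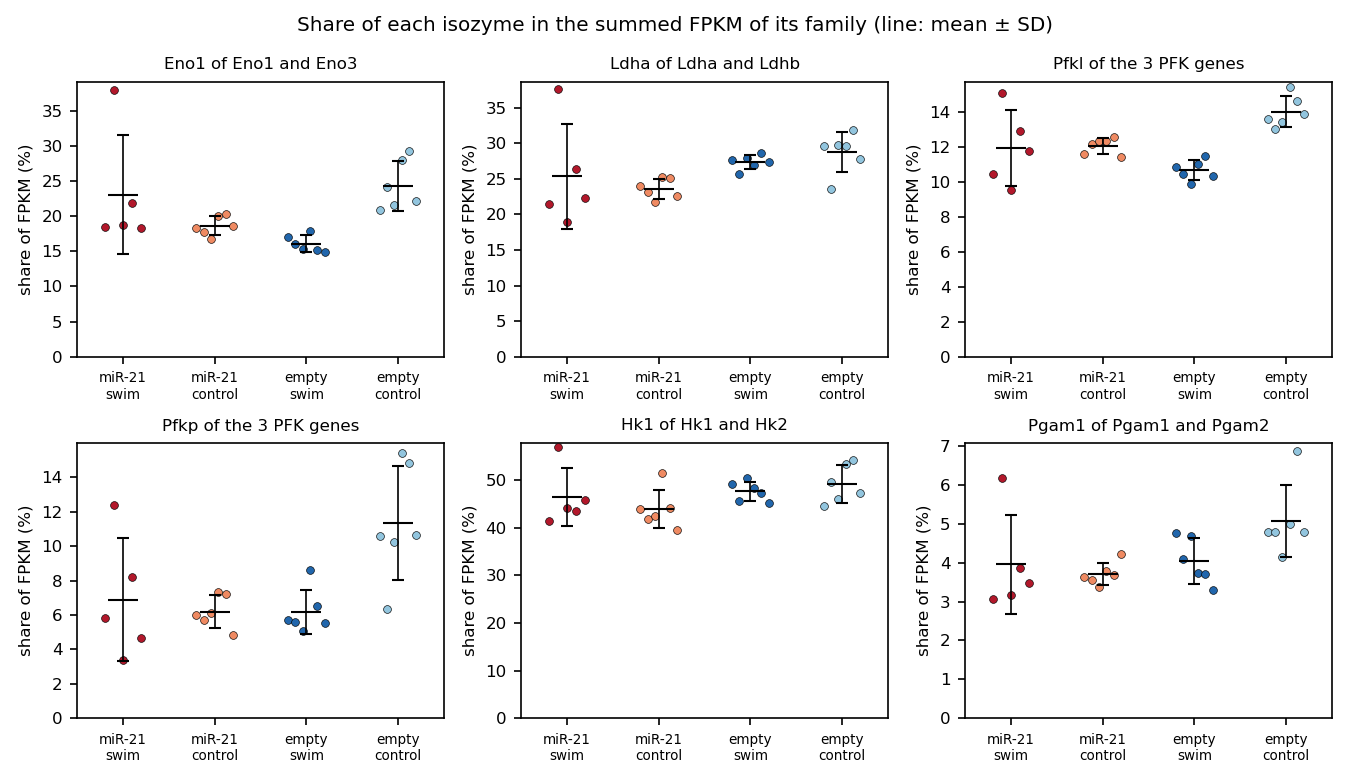
Share of a form in the summed FPKM of its family, in percent (y axis), by group (x axis); each dot is a library, lines give the mean ± SD. Eno1 and Pfkl have lower shares in all 6 empty swimmers, and in all 6 miR-21 controls, than in any of the 6 empty controls. In all 6 panels, replicate 2 of the miR-21 swimmers is the highest of its group.

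The changes with the empty vector went along with changes in marker genes of other cells. Of 8 activated fibroblast markers, 2 fell (Comp and Timp1), with a median log2 fold change of -1.16; their sum was 1035 to 2629 CPM in empty swimmers and 1448 to 6929 CPM in empty controls. The 8 macrophage markers had a median of -0.53 with none called, and summed to 430 to 838 CPM in empty swimmers and 494 to 2356 CPM in empty controls. The 8 cardiomyocyte markers had a median of 0.22 with none called, and summed to 84358 to 99163 CPM in empty swimmers and 69803 to 101511 CPM in empty controls. No marker of these 3 lists was at 0 in all libraries of a group. All 10 listed adipocyte markers summed to 764 to 905 CPM in empty swimmers and 663 to 1129 CPM in empty controls. Of 6 tested adipocyte markers, 4 fell (Adipoq, Cidec, Cfd and Car3), and only these 4 lay below 0. The highest Adipoq levels were in control replicates 2 and 5, at 25.5 and 26.9 CPM. Without those 2 controls and miR-21 swimmer 2, the falls were as large or larger for Bnip3 (-0.69, edgeR adjusted p = 1.75e-05), Egln3 (-0.74, adjusted p = 0.00665), Pfkl (-0.42), Pfkp (-0.93) and Eno1 (-0.33), and Car9 stood at -2.10. Controls 2 and 5 had the lowest levels of their group for Bnip3 (170 and 175 CPM) and Pfkl (182 and 199 CPM). Control 5 was lowest for Egln3 (91.9 CPM), and control 2 for Pfkp (92.1 CPM) and Eno1 (236 CPM). Leaving these controls out enlarges such falls by itself, so the fit cannot speak on cell make-up. That fit also kept empty control 4, whose fibroblast sum of 4264 CPM and macrophage sum of 918 CPM lay above those of every empty swimmer. Whether cell make-up plays a part in the falls was not tested.

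The levels of Slc16a3 and the muscle forms are set beside the marker sums of single libraries, a choice made after the values were seen. Empty controls 2, 4 and 5 had the highest macrophage, activated fibroblast and neutrophil sums of their group. Slc16a3 had 12.2, 11.9 and 12.2 CPM in these 3 controls, and 17.5 CPM in miR-21 swimmer 2. Its other levels ran from 1.73 to 5.89 CPM in miR-21 swimmers, and reached 5.68 CPM in miR-21 controls, 3.86 CPM in empty swimmers and 5.36 CPM in empty controls. Eno3 and Pfkm were lowest in miR-21 swimmer 2, at 695 and 705 CPM, which also had the lowest cardiomyocyte sum. Next lowest was empty control 5 for both, at 894 CPM for Eno3 and 851 CPM for Pfkm, with a cardiomyocyte sum of 69803 CPM. The part of cell make-up in these levels was not tested.

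**Figure D4:**
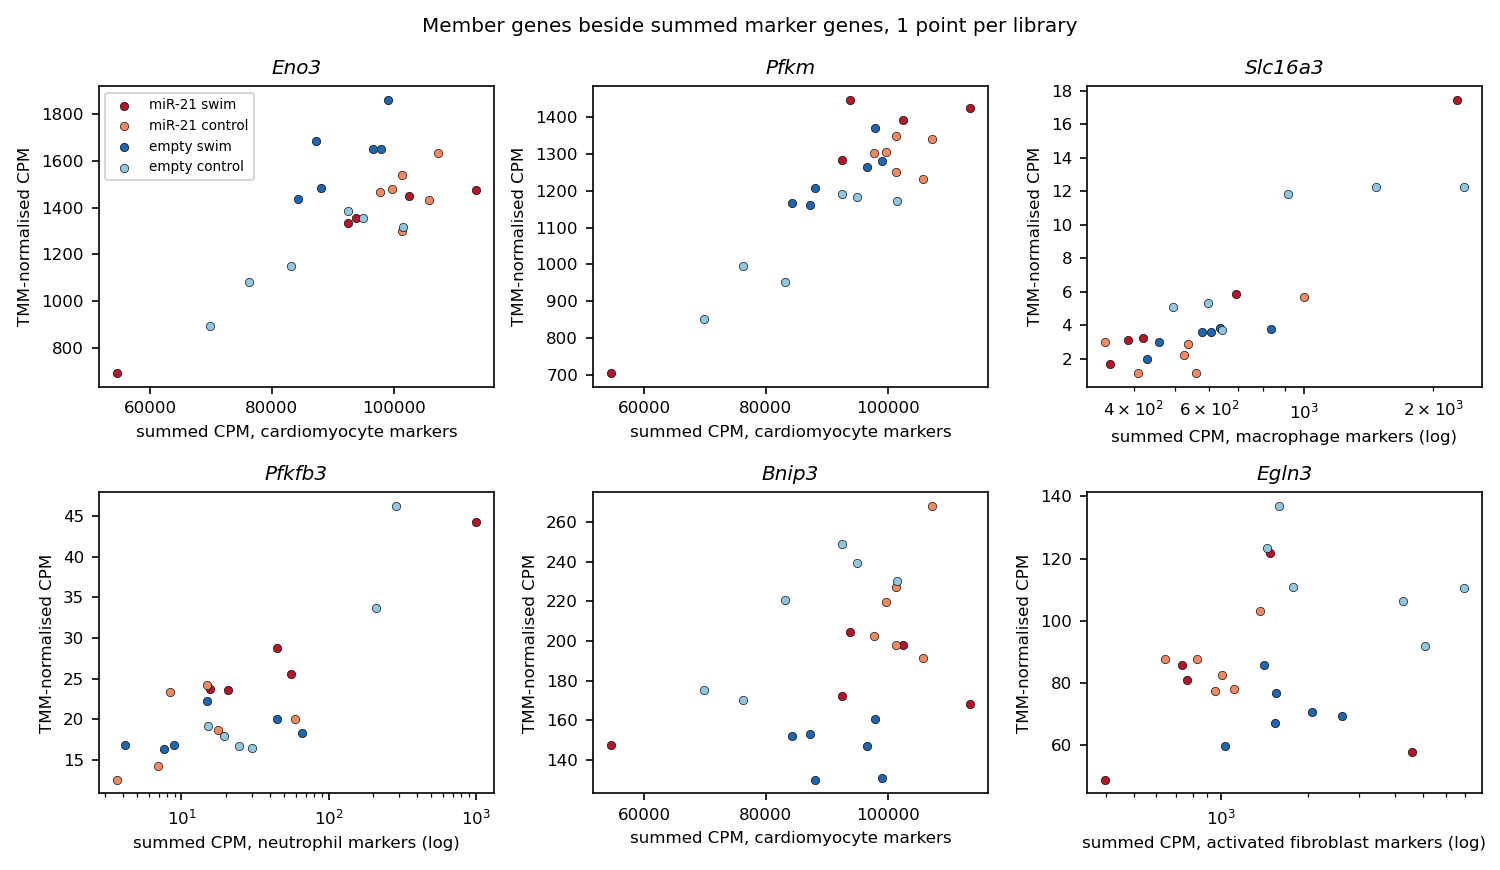
TMM-normalised CPM of 6 members (y axis) against the summed CPM of a list of cell type markers (x axis, log scale for the macrophage, neutrophil and fibroblast lists); each point is a library, coloured by group. Eno3 and Pfkm are lowest in miR-21 swimmer 2, which has the lowest cardiomyocyte sum (54471 CPM), and Slc16a3 is highest in it. Bnip3 and Egln3 do not overlap between empty swimmers and empty controls. The fibroblast sums beside Egln3 have medians of 1548 CPM in empty swimmers and 3019 CPM in empty controls. The part of cell make-up was not tested.

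A further limit touches all 6 falls. With the empty vector, swimming and the run of title numbers coincide, and only the miR-21 swimmers hold both runs. A term for the run can therefore be estimated only within the miR-21 swimmers, whose lower run holds replicates 1 and 2 alone. Replicate 2 is the library that stood apart in its marker sums. Such a term cannot separate the run from what sets replicate 2 apart, so a loss of calls under it cannot be assigned to the run. In a fit with a term for the run, 0 of 37 members passed, and 164 of all tested genes did (1.21%). The log2 fold changes were then -0.63 for Bnip3, -0.89 for Egln3, -0.56 for Pfkl, -0.52 for Pfkp, -0.14 for Eno1 and -0.44 for Car9, all still below 0, with adjusted p from 0.0711 to 0.902.

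The miR-21 vector in mice that had swum raised 1 member, the glucose carrier Slc2a1, which brings glucose across the plasma membrane of most cells. No member fell. The 1 of 37 that rose stands against 252 of 13501 tested genes that rose (1.87%), and 618 changed in either direction (4.58%). The members' median log2 fold change was 0.09, with 28 of 37 above 0, and that of all tested genes was 0.02. All 6 regulators and all 5 HIF and hydroxylase genes lay above 0, with medians of 0.22 and 0.17, none of them passing the test. Without miR-21 swimmer 2, the regulators Pfkfb4 and Pdk3 lay below 0, at -0.19 and -0.20.

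Slc2a1 had 32.3, 29.5, 30.3, 28.7 and 30.8 CPM in miR-21 swimmers, against 23.2, 24.7 and 28.0 CPM in empty swimmers. Every miR-21 swimmer lay above every empty swimmer, and the log2 fold change was 0.27 ± 0.07 (edgeR adjusted p = 0.0356). No overlap was seen with miR-21 controls either, at 21.7, 25.7 and 28.4 CPM, although that change of 0.27 ± 0.07 did not pass (adjusted p = 0.0837). Empty controls had 25.4, 26.6 and 30.3 CPM. Within the higher run of title numbers, miR-21 swimmers 3 to 5 lay above all empty swimmers, and within the lower run swimmers 1 and 2 lay above all miR-21 controls. Empty control 4, also in the lower run, had 30.3 CPM, above the 29.5 CPM of miR-21 swimmer 2. The rise of Slc2a1 passed under 22 of 32 alternatives, with log2 fold changes from 0.24 to 0.30 and adjusted p from 0.00585 to 0.10. The 32 include fits without a library of either control group, which enters this comparison only through the shared fit. It missed the threshold without empty swimmer 1, 3, 4 or 5 or miR-21 swimmer 1, 3 or 5, with adjusted p from 0.0638 to 0.0888. It also missed the threshold with no filter, in a fit of the 2 groups alone and with the term for the run.

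How many members passed in this comparison turned on 1 library. Without miR-21 swimmer 2, 7 members rose (Slc2a1, Hk1, Hk2, Pdk1, Epas1, Egln1 and Bnip3) and none fell, among 1871 tested genes that changed (13.8%). Without that library and empty controls 2 and 5, 10 rose and 2 fell (Pgam1 and Ldha), among 2318 genes (17.3%). In that library Hk2, the hexokinase of muscle, had 251 CPM, against 495 to 585 CPM in the other 4 miR-21 swimmers, and Egln1 had 293 CPM, against 518 to 599 CPM.

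In mice that had not swum, the miR-21 vector changed no member at an adjusted p under 0.05, among 304 of 13501 tested genes that changed (2.25%). By edgeR 12 of 37 members had an unadjusted p under 0.05, close to the 28.4% of all tested genes. DESeq2 called 2 members (Slc16a3 and Pfkp, both lower) against 9.15% of all genes, and limma voom 4 against 9.68%. The smallest adjusted p were those of Pfkp, -0.70 ± 0.20 (edgeR adjusted p = 0.059), and Slc16a3, -1.64 ± 0.48 (adjusted p = 0.0611). Car9 stood at -1.40 ± 0.60 (adjusted p = 0.138). Slc16a3 had 1.15, 2.56 and 5.68 CPM in miR-21 controls and 3.75, 8.61 and 12.2 CPM in empty controls. Pfkp had 87.9, 114 and 132 CPM in miR-21 controls and 92.1, 195 and 247 CPM in empty controls. Both genes overlapped between the groups. Pfkm had 1231, 1305 and 1350 CPM in miR-21 controls and 851, 1084 and 1190 CPM in empty controls, without overlap, at 0.30 ± 0.13 (adjusted p = 0.137).

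Here too the count moved with single libraries. Without miR-21 swimmer 2, which enters only the shared estimate of spread, 10 members passed, 7 higher (Slc16a1, Hk2, Pfkm, Eno3, Ldhb, Pfkfb1 and Pfkfb2) and 3 lower (Slc16a3, Pfkp and Ndrg1), among 2885 genes (21.3%). In a fit of the 2 groups alone, 8 members passed, among 1622 genes (12.5%). Activated fibroblast markers had a median log2 fold change of -2.01 in this comparison, with 2 of 8 called (Cthrc1 and Comp), and summed to 642 to 1366.9 CPM in miR-21 controls and 1448 to 6929 CPM in empty controls. The macrophage markers had a median of -0.79 with none of 8 called. Their part in the values of Slc16a3 and Pfkp was not tested.

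Both members with a seed match for miR-21 can be read in these comparisons. Pfkm stood at 0.30 ± 0.13 without swimming and at 0.01 ± 0.13 with it (edgeR adjusted p = 0.137 and 0.979). Slc16a3 stood at -1.64 ± 0.48 without swimming and at 0.94 ± 0.49 with it (adjusted p = 0.0611 and 0.293). Neither passed in either comparison. The value of Slc16a3 with swimming rests on miR-21 swimmer 2, the highest of its group at 17.5 CPM, and was 0.10 without that library (adjusted p = 0.91).

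With the miR-21 vector, swimming changed no member, among 23 of 13501 tested genes that changed (0.17%). By edgeR 7 of 37 members had an unadjusted p under 0.05, a share near the 18.8% of all tested genes. DESeq2 called 2 members (Slc2a1 and Ndrg1, both higher) against 2.98% of all genes, and limma voom called Slc2a1 alone, against 2.21%. The median log2 fold change was -0.05 over the members and 0.03 over all tested genes. Ndrg1, a hypoxia and stress response gene singled out after its values were seen, had 66.1, 90.9, 72.3, 62.3 and 68.6 CPM in miR-21 swimmers and 58.5, 59.8 and 64.8 CPM in miR-21 controls, at 0.24 ± 0.07 (edgeR adjusted p = 0.106). The highest of these was again swimmer 2, and the groups overlapped through swimmer 4.

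The swimming effects under both vectors were set against each other directly, as an interaction. No member passed, among 73 of 13501 genes (0.541%). By edgeR 9 of 37 members had an unadjusted p under 0.05, near the 21.5% of all tested genes. DESeq2 called 5 members (Slc2a1, Slc16a3, Eno1, Eno3 and Pfkfb3) against 5.33% of all genes, and limma voom called 0, against 0.97%. The smallest edgeR adjusted p among the members was 0.0652, for Slc2a1 (0.38 ± 0.10), next to 0.0661 for Slc16a3 (2.58 ± 0.69). That 6 members fell with swimming under the empty vector and none under the miR-21 vector is therefore not shown to be a difference between the vectors.

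Neither the HIF alpha subunits nor their main hydroxylase passed in any comparison. Hif1a had 109, 118, 114, 117 and 95.0 CPM in miR-21 swimmers and 88.4, 103 and 106 CPM in miR-21 controls. In empty swimmers it had 87.7, 93.5 and 104 CPM, and in empty controls 85.6, 99.1 and 118 CPM. All groups overlapped, and the smallest adjusted p was 0.142, for the miR-21 vector with swimming (0.21 ± 0.08, edgeR). Epas1 had 508, 385, 626, 534 and 601 CPM in miR-21 swimmers and 470, 509 and 556 CPM in miR-21 controls. It had 444, 473 and 505 CPM in empty swimmers and 392, 481 and 528 CPM in empty controls. Its log2 fold changes lay between 0.01 and 0.17, and the smallest adjusted p was 0.348.

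Hif3a, whose product lacks the full activating part of the other subunits, was near the limit of reading. It had 3.60, 2.77, 10.3, 1.55 and 3.71 CPM in miR-21 swimmers and 1.1, 2.97 and 6.504 CPM in miR-21 controls, against 2.83, 3.62 and 6.37 CPM in empty swimmers and 1.08, 2.50 and 4.91 CPM in empty controls. The spread within a group was wider than any difference between groups, and adjusted p was at least 0.464. Egln1 had 518, 293, 539, 549 and 599 CPM in miR-21 swimmers and 486, 544 and 568 CPM in miR-21 controls. In empty swimmers it had 414, 436 and 457 CPM, and in empty controls 396, 495 and 520 CPM. The empty swimmers were the tightest group, and no change of Egln1 passed (smallest adjusted p = 0.342, edgeR).

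Hk2 and Pkm, which open and close glycolysis, did not pass in any comparison. Hk2 had 585, 251, 495, 523 and 523 CPM in miR-21 swimmers and 414, 518 and 546 CPM in miR-21 controls. It had 369, 383 and 437 CPM in empty swimmers and 340, 425 and 501 CPM in empty controls. Apart from swimmer 2, the miR-21 swimmers lay above all empty swimmers, with 0.29 ± 0.15 over all 5 (edgeR adjusted p = 0.284). Pkm, which makes pyruvate, had 1582, 1144, 1512, 1614 and 1638 CPM in miR-21 swimmers and 1535, 1560 and 1624 CPM in miR-21 controls. In empty swimmers it had 1390, 1468 and 1535 CPM, and in empty controls 1323, 1517 and 1589 CPM. Pkm hardly differed between groups, with log2 fold changes between -0.06 and 0.09 and adjusted p of at least 0.44.

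Ldha, the lactate dehydrogenase form common in fast muscle and most tumours, had 770, 751, 724, 860 and 807 CPM in miR-21 swimmers and 835, 938 and 991 CPM in empty swimmers. It had 785, 813 and 870 CPM in miR-21 controls and 676, 890 and 983 CPM in empty controls. The miR-21 swimmers mostly lay below the empty swimmers, at -0.22 ± 0.08 (edgeR adjusted p = 0.13). Ldhb, the form typical of heart, had 1897, 839, 2096, 1616 and 1906 CPM in miR-21 swimmers and 1580, 1779 and 2119 CPM in miR-21 controls. It had 1542, 1644 and 1730 CPM in empty swimmers and 1115, 1467 and 1593 CPM in empty controls. Its largest change was that of the miR-21 vector without swimming, 0.33 ± 0.15 (adjusted p = 0.146). Gapdh, subject to the doubt about copies, had 262, 196, 262, 276 and 255 CPM in miR-21 swimmers and 165, 229 and 258 CPM in miR-21 controls, against 192, 221 and 318 CPM in empty swimmers and 152, 214 and 233 CPM in empty controls. No change of Gapdh passed, with adjusted p of at least 0.315.

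The regulators set the pace of the pathway: Pfkfb1 to Pfkfb4 make and remove the activator of phosphofructokinase, and Pdk1 and Pdk3 switch off pyruvate dehydrogenase. None passed in any comparison. Their log2 fold changes ran from -0.44 to 0.30 for swimming with the empty vector, from -0.58 to 0.68 for the miR-21 vector without swimming and from 0.14 to 0.67 for the miR-21 vector with swimming. Pfkfb3, the inducible form, likewise singled out after its values were seen, had 23.6, 44.2, 28.7, 25.6 and 23.7 CPM in miR-21 swimmers and 16.3, 17.6 and 22.2 CPM in empty swimmers. These groups did not overlap, yet its change of 0.67 ± 0.25 did not pass (edgeR adjusted p = 0.134). Pfkfb3 was highest in empty control 2, at 46.2 CPM, and in miR-21 swimmer 2, at 44.2 CPM, the 2 libraries with the highest neutrophil marker sums, 290 and 1005 CPM. The same 2 libraries also had the highest macrophage marker sums, 2356 and 2263 CPM.

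The remaining hypoxia targets, Ankrd37, Adm and Ddit4, did not pass either. Ddit4, a stress-induced brake on growth signalling, varied widely between libraries, from 53.8 to 169 CPM in miR-21 swimmers, 31.8 to 150 CPM in miR-21 controls, 61.3 to 114 CPM in empty swimmers and 30.2 to 109 CPM in empty controls. Adm, the vasodilator adrenomedullin, stayed between 5.88 and 11.6 CPM over all libraries.

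Beyond the 37 members, 82 of 89 other listed genes of the same pathways were tested. With swimming under the empty vector, 5 of them fell and 3 rose, where 7.46% of all tested genes changed. The 5 included 4 of 29 further hypoxia targets: P4ha1 and Plod2, which hydroxylate collagen, the transferrin receptor Tfrc, and the vasoconstrictor endothelin Edn1. P4ha1 had 44.0, 48.2 and 64.1 CPM in empty swimmers and 75.3, 92.7 and 108 CPM in empty controls, with no overlap, at -0.91 ± 0.12 (edgeR adjusted p = 9.72e-05). Tfrc had 116, 136 and 145 CPM in empty swimmers and 187, 256 and 368 CPM in empty controls, also with no overlap (-1.01 ± 0.29, adjusted p = 0.0363). The fifth was Emb, which escorts lactate carriers to the membrane (-2.38 ± 0.72, adjusted p = 0.0482). Emb had 41.6, 11.9 and 20.7 CPM in empty controls 2, 4 and 5, the 3 with the highest macrophage, activated fibroblast and neutrophil sums of their group. In the other 3 controls it had 2.29 to 4.35 CPM, within the 1.61 to 4.47 CPM of empty swimmers. Those that rose were the glucose carrier Slc2a12 (0.74 ± 0.22), the muscle fructose bisphosphatase Fbp2 (0.76 ± 0.21) and Pdp1, the phosphatase that switches pyruvate dehydrogenase on (0.47 ± 0.10, adjusted p = 0.00642). With the miR-21 vector and no swimming, 3 of 82 rose and none fell, where 2.25% of all tested genes changed: Pdp1 (0.42 ± 0.10), the brain form of glycogen phosphorylase Pygb (0.35 ± 0.10) and the glycerol phosphate dehydrogenase Gpd1l (0.33 ± 0.09), with edgeR adjusted p from 0.0403 to 0.0492. With the miR-21 vector and swimming, 3 of 82 changed, against 4.58% of all tested genes: pyruvate carboxylase Pcx rose (0.51 ± 0.11, adjusted p = 0.00954). Rbx1, part of the ligase that destroys HIF alpha (-0.35 ± 0.07, adjusted p = 0.0065), and the growth factor Pgf (-0.66 ± 0.17, adjusted p = 0.0281) fell there. None of the 82 passed for swimming with the miR-21 vector or in the interaction, where 18 and 20 had an unadjusted p under 0.05, near the shares of 18.8 and 21.5% over all tested genes.

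The authors' deposited comparison tables, which use their own test, list 8 members at q under 0.05 for swimming with the empty vector: the 6 that edgeR called, Slc16a3 (lower) and Eno3 (higher), among 699 of 17343 genes with a q (4.03%). For the miR-21 vector without swimming the authors' deposited table lists 7, 4 higher and 3 lower, where edgeR called 0, among 1093 of 17348 genes (6.3%). For the other 2 comparisons the authors' deposited tables list 0 members, Slc2a1 included, where 0.837% of genes passed between the vectors in swimmers and 0.127% between miR-21 swimmers and miR-21 controls.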

How the data were processed

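Total RNA of mouse hearts was made into libraries with a stranded mRNA kit, per the labels' protocols. The genome build was GRCm39, per the submitters' processing notes. Aligner: not given in the sources used here; the same holds for the counting tool. The authors deposited whole-number read counts and FPKM values per gene and library, and tables of their own comparisons with log2 fold changes, p-values and q-values, per the file headers. Of 24 labelled samples, 23 were analysed, and replicate 6 of the miR-21 swimmers was not analysed here. Another 46 columns of per-library values in the comparison tables were not used.

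Depth ran from 12744241 to 14657630 counts per library. The grouping is that of the labels, and replicate numbers follow accession order and pair nothing. Counts were filtered by filterByExpr, normalised by TMM and fitted in 1 model of 4 groups with edgeR 4.0.16 (glmQLFit with robust estimation, glmQLFTest, R 4.3.3), with Benjamini-Hochberg adjustment over all 13501 genes and a threshold of 0.05; the script was tested on simulated data. DESeq2 1.42.0, limma voom 3.58.1, other scalings and filters, fits of 2 groups, a term for the run of title numbers and fits without libraries were alternatives. FPKM served for levels between genes and for shares; their depth is that of the counts, and p-values cover the spread between libraries. Promoter and microRNA sequences are from RefSeq GRCm38.p6, and no coordinates were moved between builds.

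The members and all gene lists were chosen with earlier results of these data known. Named with full values are members called in a comparison and Hif1a, Epas1, Hif3a, Egln1, Egln3, Slc2a1, Hk2, Gapdh, Pkm, Ldha and Ldhb; further members are described by ranges, or are said to be singled out after their values were seen. Marker lists of 10 cell types were summed and counted the same way.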

Additional observations from a re-analysis of the deposited data

Results flagged for a closer look

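In 148 sets of 1 member in 1 group, the library farthest from the rest was compared with the spread of its group (Dixon's criterion), which chance meets in about 1 in 20 groups. It was met 22 times, and 12 of these were miR-21 swimmer 2. That library was lowest of its group for Hk2 (251 CPM), Pfkm (705 CPM), Aldoa (2437 CPM), Tpi1 (707 CPM), Gapdh (196 CPM) and Pgam2 (347 CPM). It was also lowest for Eno3 (695 CPM), Pkm (1144 CPM), Ldhb (839 CPM), Pdk1 (173 CPM) and Egln1 (293 CPM), and highest for Pfkfb4 (15.1 CPM).

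The other 10 were spread over 3 groups. Among miR-21 controls, replicate 3 was highest for Aldoa (3960.05 CPM), replicate 4 highest for Eno1 (246 CPM) and lowest for Pfkfb2 (106 CPM), and replicate 6 lowest for Pgk1 (409 CPM). Among empty swimmers, replicate 2 was lowest for Aldoa (2893 CPM) and Tpi1 (825 CPM), replicate 3 highest for Pdk3 (4.97 CPM) and replicate 6 highest for Hk2 (437 CPM). Among empty controls, replicate 2 was lowest for Pfkp (92.1 CPM) and replicate 5 lowest for Ldhb (1115 CPM).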

How the results depend on the processing

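Of the 6 falls with swimming under the empty vector, Bnip3 and Egln3 passed in 31 of 32 alternatives, Pfkp in 30, Eno1 and Pfkl in 29 and Car9 in 25, and none of these 6 changed sign. The 32 include fits without a library of the miR-21 vector, which enters this comparison only through the shared fit. A term for the run of title numbers left 0 calls. That term is estimated within the miR-21 swimmers alone and cannot separate the run from what sets miR-21 swimmer 2 apart. The cause of the loss was not tested. The number of calls was 3 to 10 when single libraries were left out. It was 3 without empty control 4 (Pfkl, Egln3 and Bnip3) or empty swimmer 2 (Pfkp, Egln3 and Bnip3). It was 10 without miR-21 swimmer 2, where Eno3 and Pfkm rose and the others fell. DESeq2 called 9. The number of all tested genes that passed also moved with the setting, and it is not set beside the counts of this section. The counts therefore show how calls of members depend on the processing. They do not show whether members changed more often than other genes.

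For the miR-21 vector without swimming, where edgeR called 0, DESeq2 called 2, limma voom 4, the fit of 2 groups 8, the run term 2, and the fit without empty controls 2 and 5 and miR-21 swimmer 2 called 2. Leaving out single libraries gave 0 to 10, with 10 without miR-21 swimmer 2 and 1 without empty control 1, 2 or 3 or miR-21 swimmer 3 or 5.

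For the miR-21 vector with swimming, the 1 call became 0 with no filter, with 2 groups and with the run term, 2 with DESeq2, 10 with limma voom and 12 without those 3 libraries; single libraries gave 0 to 7, with 7 without miR-21 swimmer 2 and 0 without the libraries named beside Slc2a1. For swimming with the miR-21 vector the counts were 2 (DESeq2), 1 (limma voom) and 3 (run term: Slc16a3, Pdk3 and Ndrg1), and 0 without any single library. The interaction had 5 by DESeq2 and 0 to 2 without single libraries, with 2 (Slc16a3 and Eno1) without miR-21 swimmer 3 and 1 (Slc16a3) without miR-21 swimmer 1 or 5. The causes were not tested. For swimming with the empty vector Slc16a3 stood at -1.35, below 0 in 31 of 32 alternatives, with a range from -1.50 to 0.16, the highest under the run term. No paired analysis was possible because replicate numbers come from accession order. Levels near 1 CPM, such as those of Car9, rest on few counts, which limits their precision.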

Other observations

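Genes that handle pyruvate in mitochondria were listed beside the members: carriers, subunits of pyruvate dehydrogenase, the phosphatases that switch it on, the kinases Pdk2 and Pdk4 that switch it off, and pyruvate carboxylase. Under the miR-21 vector without swimming, all 13 of them lay above 0, with a median log2 fold change of 0.27 against -0.005 for all tested genes, and 1 of the 13 passed (Pdp1, 0.42 ± 0.10, edgeR adjusted p = 0.0403). In the same comparison 11 of 13 glycogen genes lay above 0, with a median of 0.22, and 1 passed (Pygb). The 8 cardiomyocyte markers also lay above 0 there, with a median of 0.28 and none called, and the part of cell make-up was not tested. Under swimming with the empty vector the pyruvate genes had a median of 0.09 and the glycogen genes of -0.07.

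Marker lists of further cell types were counted for swimming with the empty vector. Of 7 endothelial markers 3 rose and none fell, with a median of 0.20, and of 7 smooth muscle markers 2 rose, with a median of 0.06. Of 6 mesothelial markers 1 fell, with a median of -4.81. All 7 listed mesothelial markers summed to only 7.88 to 13.8 CPM in empty swimmers and 8.26 to 43.7 CPM in empty controls. That median therefore rests on few counts. None of the 6 skeletal muscle (median -0.14), 6 neutrophil (median -1.85) or 5 erythrocyte markers (median -0.28) passed. For the miR-21 vector with swimming, 3 of 7 endothelial markers fell (median -0.24) and 4 of 6 mesothelial markers rose (median 5.88). The mesothelial rise rests on miR-21 swimmer 2, whose sum was 193 CPM, against 5.19 to 13.3 CPM in the other 4 miR-21 swimmers and 7.88 to 13.8 CPM in empty swimmers. Without that library, a fit chosen after the data were seen, 0 mesothelial markers rose and 1 fell (median 1.62). The part of these cells in the members' levels was not tested.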
